A study of Nasonia vitripennis with 39 samples.

Results

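The heads of the Whiting Polyploid Line (WPL) of the parasitoid wasp Nasonia vitripennis were compared across ploidy in both sexes together, to describe which genes moved alike and which moved differently when a chromosome set was added. The heads supply 20 of the 39 libraries of the series and were chosen by their tissue label. They form 4 groups of 5 libraries: 1N males, 2N males, 2N females and 3N females. All 4 groups belong to the strain WPL, a laboratory line in which polyploidy arose spontaneously, and their genotypes are labelled WPL_LSL_1N, WPL_LSL_2N and WPL_LSL_3N. The 1N males and 2N females, which have the usual ploidy of the species, therefore come from the same line as the polyploid animals. All animals were taken 1 day after emergence. The labels do not say whether a library holds 1 head or a pool, nor that libraries of a group come from separate animals, so the p-values below measure the spread between libraries, part of which may be technical.

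Nasonia is haplodiploid: males usually develop from unfertilised eggs and carry a single chromosome set, and females from fertilised eggs and carry a pair. Diploid males and triploid females each have a further set of the same chromosomes, so most genes keep their dose relative to one another. Counts were scaled within each library, so a change that moved every gene by the same factor would not appear. The male step is the log2 difference of 2N over 1N male heads, and the female step that of 3N over 2N female heads. Their average is called the mean step and was tested against 0, so a gene that moved in 1 sex alone can also be called. The female step minus the male step is the interaction and tests whether the sexes differ. The male step goes from 1 set to 2 and the female step from 2 sets to 3, so they are not equal in proportion, and they share no library.

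Depth, in M (10 to the power 6) of estimated counts per library, spanned 16.3 to 41.8 M for the 1N males and 18.8 to 132 M for the 2N males. For the 2N females it spanned 16.7 to 18.7 M, and for the 3N females 18.1 to 71.9 M. Depth moved with ploidy in both sexes: totals over 30 M were found in 1 of 5 1N male, 4 of 5 2N male, 0 of 5 2N female and 3 of 5 3N female libraries. In the 1N males, 2N males and 3N females, replicate names ending in a letter marked exactly the libraries under 30 M. No 2N female name ended in a letter. Within a group, depth and letter names therefore cannot be told apart. Lop1, a long-wavelength opsin of photoreceptors, stood between 1710 and 6750 CPM (counts per 1 M counts of the TMM-scaled library) in the heads and at no more than 5.44 CPM in the abdomens. The 2N female head B21 carried ovary transcripts, its summed nanos and oskar level being 96.8 CPM, and the 2N male head B12A had summed muscle markers of 1950 CPM. Libraries of a head group differed by more than sampling noise in all 40 pairs (chi-square over degrees of freedom 11.4 or more). Spread was wider among males, with a common coefficient of biological variation of 0.356 over the 10 male heads and 0.242 over the 10 female heads.

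With a chromosome set added, the average step of the sexes differed from 0 in 234 of 10846 genes tested (2.16%), of which 122 (1.12%) rose and 112 (1.03%) fell in the mean step (edgeR quasi-likelihood test, adjusted p under 0.05); with library totals in place of TMM scaling, 86 rose and 137 fell. No gene was called for the interaction (0 of 10846, 0%). The genes that rose included Scr, Kr and 3 nicotinic acetylcholine receptor subunits, and those that fell included a defensin, the immune adaptor Imd and the chromatin gene Wds. Most changes were small: the median mean step was 0.63 among the genes that rose and -0.59 among those that fell, against -0.01 over all genes tested. Only 16 of the 122 and 26 of the 112 exceeded a log2 change of 1. The mean step of the genes that rose ran from 0.26 to 2.12, and that of the genes that fell from -5.36 to -0.21. LOC100114726 lay just inside the threshold, with a mean step of 0.70 and an adjusted p of 0.0494, and LOC100120780 just outside it, with 0.36 and 0.0506 (edgeR quasi-likelihood test).

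Few of these genes could be called for 1 sex in the joint fit, where all head groups share 1 estimate of the spread. There the male step called 8 genes (0.0738%), 1 higher (0.00922%) and 7 lower (0.0645%). The female step called 34 (0.313%), 17 higher (0.157%) and 17 lower (0.157%). With each sex fitted by itself, male heads called 0 genes and female heads 1805. The counts for a single sex therefore depend on this choice of fit. Of the 234 genes called for the mean step, 195 were called for neither the male nor the female step of the joint fit. All 234 had the same sign in males and females, which choosing genes by their average favours. The female step was the larger in 170 of them, and in 103 of the 122 that rose. The unadjusted p was under 0.05 in each sex for only 144 of the 234, and for 286 of all genes tested. LOC100121344, for example, was called with a male step of -0.02 and a female step of -0.70.

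**Figure D1:**
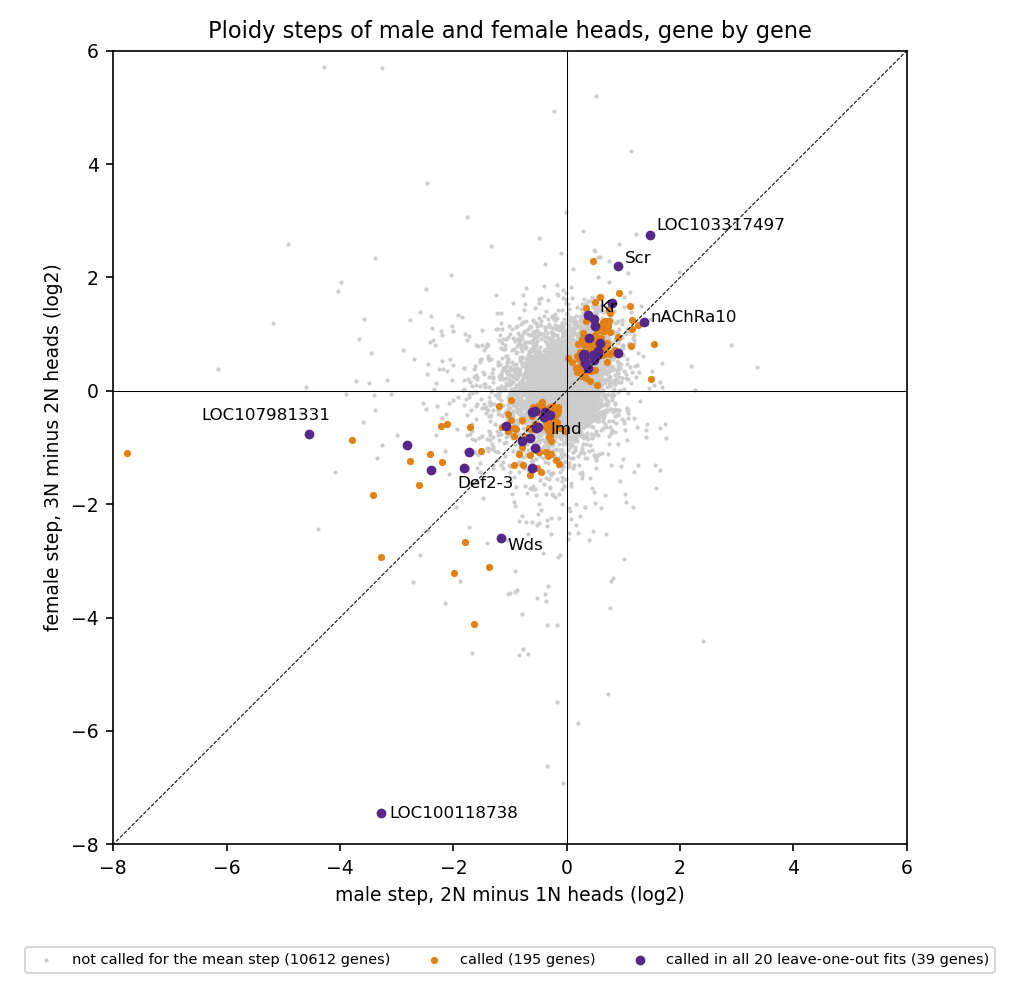
Male step (x axis, log2 of 2N over 1N heads) against female step (y axis, log2 of 3N over 2N heads), 1 point per gene tested, with equal steps on the dashed line. Colours mark the 234 genes called for the mean step and, among them, the 39 called in each of 20 fits that left out 1 library. Called genes lie at the lower left and upper right by their choice, and the grey cloud has little tilt (Spearman rho 0.20).

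Over all genes the resemblance between the sexes was weak. Across the 10846 genes the male and female steps had a Pearson correlation of 0.16 and a Spearman correlation of 0.20, and 56.6% of genes had the same sign; genes are not independent replicates. Among the 8355 genes averaging 5 CPM or more the values were 0.25, 0.24 and 57.1%. Both steps share the unequal depth of their groups, and with a term for libraries over 30 M counts the Spearman correlation was 0.41. For each gene that term takes the same estimate out of both steps, which can by itself make them more alike. The value of 0.41 therefore does not measure agreement of the sexes. Without the 1N male B1A, and with no such term, the correlation was 0.10. Complete separation of libraries was also compared. In males, all 5 libraries of the higher ploidy lay above all 5 of the lower for 54 genes (0.498%) and below for 75 (0.691%), and in females for 954 (8.8%) and 621 (5.73%). Libraries were separated upward in both sexes for 15 genes, which are 27.8% of the male and 1.57% of the female genes so separated. Downward separation in both sexes was found for 14 genes, 18.7% of the male and 2.25% of the female genes. The 29 genes separated alike are 0.267% of those tested, and no gene was separated in opposite directions.

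The genes called for the male or the female step of the joint fit leaned the same way in the other sex. Depth moved with ploidy in both sexes, and its part in these shared signs was not tested. All 7 genes called lower in males had a negative female step (52.7% of all genes had), with a median of -2.22 in males and -0.76 in females. All 17 genes called lower in females had a negative male step (51.8% of all genes had), with medians of -1.12 in females and -0.45 in males. Of the 17 called higher in females, 15 had a positive male step (48.2% of all genes had). Their medians were 1.14 in females and 0.34 in males. LOC100121630 was the gene called in both sexes.

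The number of calls depended strongly on single libraries of both sexes. Leaving out the 1N male B5D raised the number called for the mean step from 234 to 833, and leaving out B3 or the 2N male B15 raised it to 397 or 405. Without B2A or B12A it was 310 or 230, and without the 3N females B31 or B33 it was 161 or 181. Leaving out B1A or B4A lowered it to 100 or 140, and leaving out B11, B13 or B14 to 64, 85 or 45. Without 1 of the 2N females B21, B22, B23, B24 and B25 it was 48, 80, 53, 95 and 75, and without the 3N females B32, B34A and B35A it was 94, 79 and 88. The call held in all 20 such fits for 39 genes, 20 that rose and 19 that fell, and in fewer than 10 fits for 139. Among these 39 genes Imd, Kr, nAChRa10, Scr and Wds have a descriptive symbol.

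Genes called for the mean step set female heads apart and not male heads, which the choice of these genes favours. Each library was left out, genes were called for the mean step without it, and its median position between the remaining libraries of the lower ploidy (0) and the higher ploidy (1) of its sex was taken over those genes. The 2N females fell between -0.14 and 0.24 and the 3N females between 0.73 and 0.94. Among 1N males B1A lay at -1.18 and B4A at 0.45, nearer the lower ploidy, while B2A, B3 and B5D lay at 0.66, 0.72 and 1.11. The 2N males B11, B12A, B13, B14 and B15 lay at 1.03, 0.58, 0.85, 1.04 and 0.14. Each library was placed on its own gene set, from 45 genes for B14 to 829 for B5D, so positions are not on 1 common scale. The set for B5D holds genes that were not called with B5D in the fit, which favours a position away from its own ploidy. On these differing sets the positions of the male groups overlapped, and those of the 2 female groups did not.

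**Figure D2:**
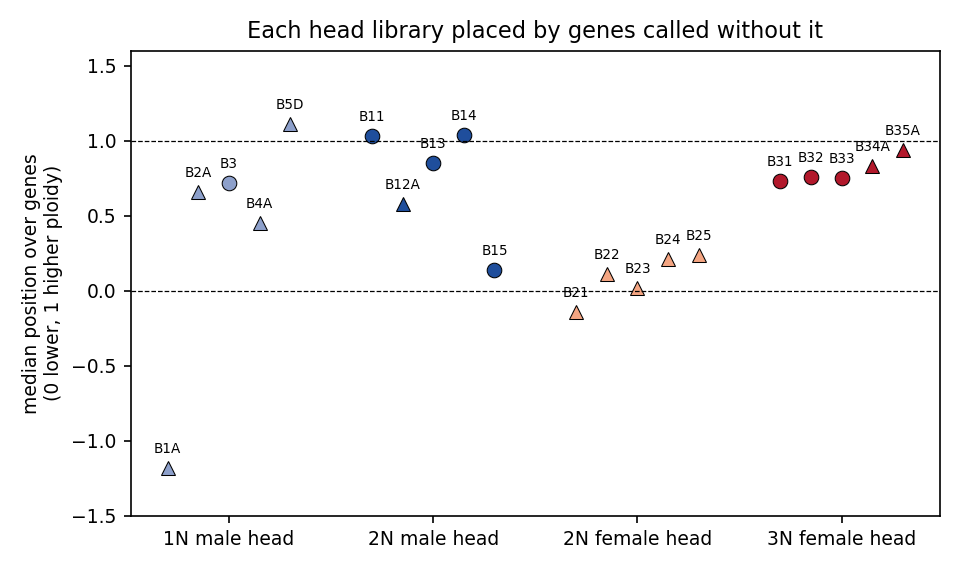
Median position of each head library (y axis, 0 for the mean of the lower and 1 for the mean of the higher ploidy of its sex) over genes called for the mean step in a fit without it, by group (x axis). Circles are libraries over 30 M counts and triangles the others. The 2N females lie at or below 0.24 and the 3N females at or above 0.73, whereas the 1N and 2N males overlap. Each library has its own gene set, of 45 to 829 genes.

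A defensin and the adaptor Imd fell with ploidy. The smallest adjusted p of all genes belonged to LOC100121630, annotated with the synonym Def2-3, a defensin; defensins are small secreted peptides that kill bacteria and are made in insects largely by the fat body. LOC100121630 stood at 31.9, 24.4, 14.7, 48.7 and 28.1 CPM in 1N males and at 8.29, 12.4, 9.53, 6.63 and 5.42 CPM in 2N males. In females it stood at 42.3, 60.9, 49.6, 45.7 and 42.1 CPM in 2N and at 21, 19.8, 17.4, 21.1 and 14.7 CPM in 3N heads. No library of the higher ploidy reached any library of the lower ploidy of its sex. It fell by 1.59 on the log2 scale in the mean step (SE 0.18, adjusted p = 0.000257, edgeR quasi-likelihood test), by 1.82 in males and by 1.36 in females, and kept its call in all 20 leave-one-out fits and in all 16 other settings tried.

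Imd, the adaptor that in Drosophila couples peptidoglycan receptors to the relish branch of the innate immune response, fell by less and as evenly. Imd stood at 26.1, 21, 22.2, 20 and 23.5 CPM in 1N males and at 14.6, 18.3, 15.4, 17 and 19.8 CPM in 2N males. Its levels were 18.7, 15.8, 20.4, 18 and 18.2 CPM in 2N females and 13.9, 14, 13.9, 11.9 and 12.5 CPM in 3N females. The groups did not overlap in either sex. The mean step was -0.43 (SE 0.08, adjusted p = 0.0121, edgeR quasi-likelihood test), with -0.41 in males and -0.46 in females, and was -0.45 but not called among shallow libraries alone, which hold a single 2N male.

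Of the immune list, which held 5 tested genes and not Imd, 1 fell and none rose, against 1.03% and 1.12% of all genes. Its median mean step was -1.24, against -0.01 over all genes. The other members were the defensins Def1-1 and Def1-2, with mean steps of -1.48 and -1.24, and the prophenoloxidases ppo1 and ppo3, enzymes of melanisation, with -0.20 and -0.14; none of these was called (adjusted p 0.172 or more, edgeR quasi-likelihood test). Def1-2 stood at 52.8, 37, 263, 33.7 and 50.9 CPM in 1N males and at 13.1, 10.7, 82.1, 17.6 and 18.9 CPM in 2N males. Def1-2 was at 10.8, 26.7, 105, 17 and 20.7 CPM in 2N females and at 17.2, 38.1, 13.5, 11.6 and 17.8 CPM in 3N females. In each group 1 library stood far above the rest (B3, B13, B23 and B32), and the same 4 libraries had the highest Def1-1. They did not stand out for LOC100121630. Defensins resemble one another, and reads shared among them are apportioned in an estimated count, so the 3 levels are not fully separate measurements. Summed fat body markers, 3 hexamerins and Akhr, ran from 42.3 to 74.4 CPM in 1N and from 26.1 to 47.6 CPM in 2N males, but from 13 to 25.2 CPM in 2N and from 23 to 33.2 CPM in 3N females. Their part in the defensin values was not tested. In whole heads, fewer cells of a type and less RNA per cell cannot be told apart.

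Neuronal receptors rose in part. Nicotinic acetylcholine receptors are pentameric ion channels that carry fast excitatory transmission in the insect brain, and 3 of their subunits rose in the mean step. nAChRa10 stood at 5.93, 6.99, 31.5, 7.37 and 8.60 CPM in 1N males and at 28.9, 40.9, 30.1, 30.1 and 27.6 CPM in 2N males. For nAChRa10 the levels were 7.67, 7.33, 8.39, 6.21 and 7.74 CPM in 2N females and 20.5, 20.1, 19.4, 15.9 and 11 CPM in 3N females. The 1N male B3, the deep library of its group, lay among the 2N males, and the other 4 lay below every 2N male. Its mean step was 1.29 (SE 0.25, adjusted p = 0.0154, edgeR quasi-likelihood test), with 1.37 in males and 1.22 in females, and it was called in all 20 leave-one-out fits. With a term for deep libraries it was 0.97 and with all 39 libraries in the fit it was no longer called.

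The calls of nAChRa1 and nAChRb1 were less stable. nAChRa1 had a mean step of 0.68 (SE 0.15, adjusted p = 0.0332, edgeR quasi-likelihood test), with 0.49 in males and 0.86 in females, and kept its call in 14 of 20 leave-one-out fits. nAChRb1 had a mean step of 1.03 (SE 0.24, adjusted p = 0.0382), with 0.49 in males and 1.56 in females, and kept its call in 9 of 20. In males both subunits overlapped between ploidies: nAChRb1 ran from 14 to 42.6 CPM in 1N and from 19.2 to 62.3 CPM in 2N heads. In females it ran from 7.56 to 19.5 CPM in 2N and from 27 to 59.1 CPM in 3N heads, without overlap.

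Among the 19 tested neuronal channels and receptors, 3 rose and none fell, against 1.12% and 1.03% of all genes, with a median mean step of 0.19. GluCl, a glutamate-gated chloride channel, and nAChRa4 had mean steps of 0.74 and 0.75 without a call (adjusted p 0.0729 and 0.0721, edgeR quasi-likelihood test), and nAChRb3 had -0.37 (adjusted p 0.147). The list's median was 0.09 in males and 0.44 in females. Neuron markers were higher in sum in 3N than in 2N females. Of 15 markers, 12 were acetylcholine receptor subunits of this list; the other 3, Para, Pdf and Syt1, summed to 867 to 985 CPM in 2N and 1100 to 1640 CPM in 3N females, and to 816 to 1510 CPM in 1N and 843 to 1710 CPM in 2N males. Para and Syt1 had female steps of 0.91 and 0.55, and Pdf, a neuropeptide, one of -0.28. Lop1 ran the other way in females, from 5470 to 6150 CPM in 2N and from 3190 to 4770 CPM in 3N heads, and overlapped in males. The part of these cell types in the receptor values was not tested.

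Developmental transcription factors were among the genes that rose. Scr is the Hox gene Sex combs reduced, which in Drosophila gives the labial and first thoracic segments their identity. Scr stood at 2.15, 3.40, 4.46, 2.52 and 5.23 CPM in 1N males and at 8.27, 7.45, 6.07, 7.18 and 4.63 CPM in 2N males. Its levels were 0.166, 0.791, 1.23, 1.55 and 1.5 CPM in 2N females and 5.68, 7.07, 5, 4.17 and 2.25 CPM in 3N females. Females did not overlap, and in males 1 library of each ploidy crossed, B5D above B15. The mean step was 1.56 (SE 0.28, adjusted p = 0.0121, edgeR quasi-likelihood test), with 0.91 in males and 2.21 in females.

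Kr encodes Krüppel, a zinc-finger repressor known as a gap gene of the embryo. Kr ran from 3.59 to 10.1 CPM in 1N and from 6.05 to 11.9 CPM in 2N males, with overlap. In females it ran from 4.19 to 6.5 CPM in 2N and from 10.5 to 18.5 CPM in 3N heads, without overlap. The mean step was 0.88 (SE 0.18, adjusted p = 0.0227, edgeR quasi-likelihood test), with 0.48 in males and 1.27 in females. Both Scr and Kr held in every leave-one-out fit, and both lost the call with all 39 libraries in the fit and against a fold of 1.5. Both also lost it among shallow libraries alone, where the steps were 1.38 for Scr and 0.92 for Kr. In the abdomens Kr was not called, with steps of -7.96 in males (adjusted p = 0.0516, edgeR quasi-likelihood test) and -0.49 in females. Of 3 tested early patterning factors, a list that does not hold Scr, 1 rose (1.12% of all genes did). That was Kr, the only 1 of them above 0 in both sexes. The others were hairy, described below with the interaction, and Gt. Gt had steps of -0.18 in males and -0.14 in females (mean step -0.16, adjusted p = 0.575, edgeR quasi-likelihood test).

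Wds, in Drosophila will die slowly, a WD-repeat protein of histone methyltransferase complexes, fell. Wds stood at 5.22, 5.95, 12.2, 2.97 and 8.75 CPM in 1N males and at 3.30, 1.80, 4.58, 2.08 and 3.97 CPM in 2N males. For Wds the female levels were 4.08, 6.43, 8.70, 2.27 and 3.39 CPM in 2N and 0.117, 0.71, 0.534, 1.39 and 1.58 CPM in 3N heads. Males overlapped through B4A, and females did not overlap. Its mean step was -1.88 (SE 0.37, adjusted p = 0.0192, edgeR quasi-likelihood test), with -1.15 in males and -2.60 in females; among shallow libraries alone it was -1.71 and not called.

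**Figure D3:**
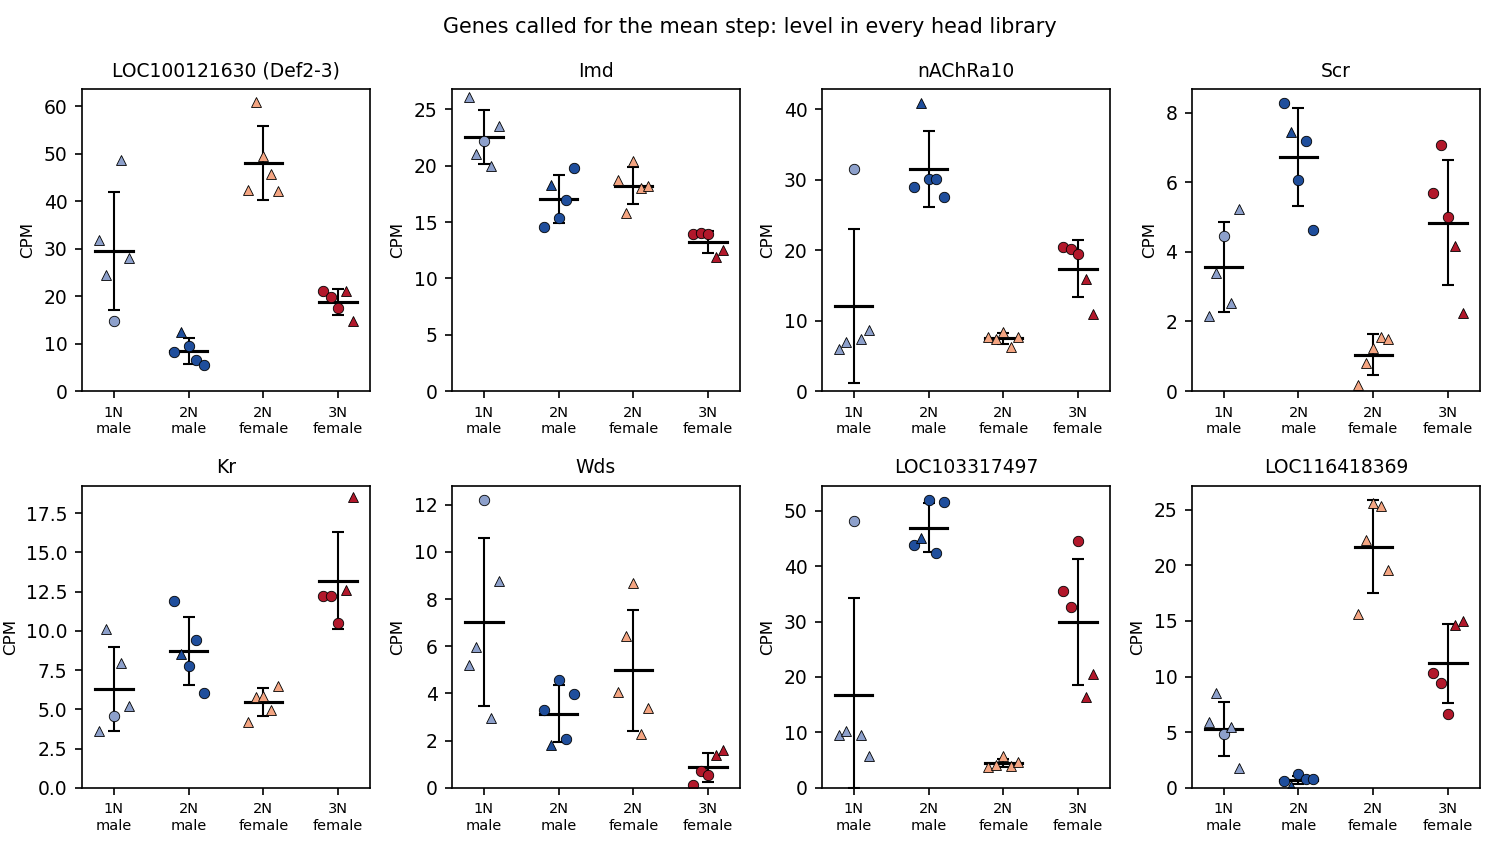
Level in CPM (y axis, from 0) in every head library for 8 genes called for the mean step, by group (x axis). Circles are libraries over 30 M counts and triangles the others; bars show the mean and SD of 5 libraries, the lower arm stopping at 0. LOC100121630, Imd, Wds and LOC116418369 are lower and the other 4 genes higher at the higher ploidy of each sex, and 1 of the 1N males sits among the 2N males for nAChRa10 and LOC103317497.

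Several of the strongest calls carry no descriptive name, and no role is given for them. LOC103317497 had the largest rise of those kept in all leave-one-out fits. It stood at 9.58, 10.3, 48.1, 9.61 and 5.73 CPM in 1N males and at 43.8, 45.1, 51.9, 42.4 and 51.6 CPM in 2N males. The female levels of LOC103317497 were 3.75, 4.11, 5.68, 3.99 and 4.73 CPM in 2N and 35.5, 32.6, 44.5, 16.4 and 20.6 CPM in 3N heads. Here too the deep 1N male B3 lay among the 2N males, and nothing else overlapped. The deep 3N females B31, B32 and B33 stood above the shallow B34A and B35A. The shallow 2N male B12A, in contrast, stood among the deep 2N males. The mean step was 2.12 (SE 0.31, adjusted p = 0.00289, edgeR quasi-likelihood test), with 1.48 in males and 2.75 in females, and all 16 other settings kept the call. LOC100679215, which lies next to it among the tested genes in the order of the RefSeq annotation, also had B3 high among the 1N males. Its mean step was 1.17 (SE 0.21, adjusted p = 0.0122, edgeR quasi-likelihood test), and B3 stood at 23.3 CPM against 6.13 to 8.55 CPM in the other 1N males. Fitted with a term for deep libraries, the mean step was 1.56 for LOC103317497 and 0.67 for LOC100679215. Depth and ploidy cannot be told apart fully for these genes.

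LOC100678896 and LOC100120541 were separated by ploidy in both sexes. LOC100678896 rose: it ran from 3.17 to 7.56 CPM in 1N and from 9.63 to 13.3 CPM in 2N males, and from 4.71 to 6.83 CPM in 2N and from 7.78 to 11.2 CPM in 3N females. The mean step came to 0.79 (SE 0.13, adjusted p = 0.0106, edgeR quasi-likelihood test), with 0.91 in males and 0.66 in females. LOC100120541 fell: it ran from 139 to 223 CPM in 1N and from 95.1 to 125 CPM in 2N males, and from 175 to 225 CPM in 2N and from 81.1 to 118 CPM in 3N females. It fell by 0.78 in the mean step (SE 0.09, adjusted p = 0.000304), with -0.55 in males and -1.01 in females. LOC100113512, also lower, had -0.78 in males and -0.89 in females, LOC100114125 rose with 0.38 and 1.34, and LOC100119509 rose with 0.31 and 0.58 (adjusted p of the mean step 0.00289, 0.00289 and 0.00728).

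LOC116418369 fell more in males than in females. It stood at 5.87, 8.50, 4.82, 5.45 and 1.81 CPM in 1N males and at 0.598, 0.124, 1.20, 0.796 and 0.822 CPM in 2N males. Females held 15.6, 22.3, 25.6, 25.3 and 19.6 CPM in 2N and 10.3, 9.38, 6.63, 14.6 and 15 CPM in 3N heads. No library overlapped in either sex. The mean step was -1.89 (SE 0.26, adjusted p = 0.00215, edgeR quasi-likelihood test); the male step was -2.81, the female step -0.96, and the interaction of 1.85 had an adjusted p of 0.436. The call was lost with all 39 libraries and among shallow libraries alone, where the step was larger (-2.96). LOC100680416, its neighbour in the RefSeq order, had a mean step of -1.42 (adjusted p = 0.0226) and was called in 19 of 20 leave-one-out fits. In all, 3 neighbouring pairs of the 10839 tested were called in the same direction and 3 in opposite directions; the strand setting is not given in the sources used here, so reads of overlapping genes were not told apart.

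LOC100118738, named here after its values were seen, had the largest mean step of any called gene, at low levels in 3 of the 4 groups. It stood at 0.652, 0, 0.506, 2.24 and 9.40 CPM in 1N males and at 0, 0.994, 0.117, 0.520 and 0.0765 CPM in 2N males. Levels in 2N females were 0.110, 43.4, 19.7, 30.8 and 8.81 CPM, and in 3N females 0.176, 0.148, 0, 0.111 and 0.225 CPM. All 2N females but B21 stood above every 3N female, and B5D alone exceeded 3 CPM among males. The fitted mean step was -5.36 (SE 0.98, adjusted p = 0.0122, edgeR quasi-likelihood test), and it kept its call in all 20 leave-one-out fits (-5.69 to -4.59), but in 9 of 16 other settings; it was lost with voom and with a term for deep libraries (-3.99, adjusted p = 0.0658).

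Cuticle genes leaned lower in both sexes. CPR proteins bind chitin in the exoskeleton through a conserved consensus. Of 25 tested cuticle genes 1 rose and 2 fell, against 1.12% and 1.03% of all genes. Below 0 in both sexes were 17, against 30.5% of all genes, and the median mean step was -0.67. CPR18 stood at 25.6, 17.1, 42.4, 19.8 and 38.3 CPM in 1N males and at 18.5, 23.1, 9.52, 11.5 and 12.9 CPM in 2N males. Females ran from 6.62 to 8.17 CPM in 2N and from 3.09 to 5.68 CPM in 3N heads, without overlap. Its mean step was -0.86 (SE 0.19, adjusted p = 0.0296, edgeR quasi-likelihood test), kept in 13 of 20 leave-one-out fits and lost with a term for deep libraries or with the length trend taken out. CPR35 had -1.17 (adjusted p = 0.0481), with B5D at 533 CPM against 56.7 to 132 CPM in the other 1N males. Without B5D its step was -0.67 and still called (adjusted p = 0.0171), and its call held in 4 of 20 such fits and 4 of 16 other settings. CPR22 ran against the list, with a mean step of 1.3 (SE 0.31, adjusted p = 0.0385, edgeR quasi-likelihood test), and was kept in 9 of 20 fits. The effective lengths of CPR18, CPR35 and CPR22 were 0.452, 0.447 and 0.277 of a library's median gene. Gene length moved with the mean step, as described below, and its part in the list's lean was not tested. The yellow and royal jelly family, whose yellow members act in cuticle pigmentation, had no called gene among 14 tested and a median of -0.41. In this family 10 genes were below 0 in both sexes, against 30.5% of all genes. Y-e3 and Y-h had the smallest p among them, with mean steps of -0.61 and -0.67 (adjusted p 0.0892 and 0.105).

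Of the cytochrome P450 genes 3 were called. CYP314A1, in Drosophila the hydroxylase that turns ecdysone into its active form, was separated in both sexes: 16.6 to 19.6 CPM in 1N and 12.8 to 16.1 CPM in 2N males, and 12.5 to 15.3 CPM in 2N and 6.61 to 10.7 CPM in 3N females. Its mean step was -0.43 (SE 0.10, adjusted p = 0.0365, edgeR quasi-likelihood test), kept in 8 of 20 leave-one-out fits. CYP6CK13P fell (mean step -0.79, adjusted p = 0.0385) and CYP4BW5 rose (1.19, adjusted p = 0.0488), the latter from levels no higher than 1.89 CPM in any library. The 39 tested cytochrome P450 genes thus held 1 higher and 2 lower, against 1.12% and 1.03% of all genes, and their median mean step was -0.01. With a term for deep libraries none of the 3 was called (adjusted p 0.102, 0.102 and 0.161 for CYP314A1, CYP6CK13P and CYP4BW5), and CYP4BW5 held in only 3 of 16 settings and 5 of 20 leave-one-out fits, with a step of 0.49 among shallow libraries. CYP6CK13P also lost its call with the length trend taken out (-0.68, adjusted p = 0.0715, edgeR quasi-likelihood test). SDR, a short-chain dehydrogenase, had -1.73 (adjusted p = 0.0372), with B5D at 49.6 CPM against 4.49 to 8.35 CPM in the other 1N males; without B5D the step was -1.11 and still called (adjusted p = 0.018). Ap2a2, a subunit of the AP-2 clathrin adaptor of endocytosis, had 0.73 (adjusted p = 0.0398), and serpin5, of the serine protease inhibitors, had -0.52 (adjusted p = 0.0488). Ap2a2 kept its call in 10 of 20 leave-one-out fits and serpin5 in 2, and both lost it with the length trend taken out (adjusted p 0.0578 and 0.0661). Of 27 transferases and carboxylesterases none was called; GstS3 came nearest, with -0.60 (adjusted p = 0.0589).

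Mitochondrial genes showed small steps. All 4 tested mitochondrial ribosomal proteins were below 0 in both sexes, against 30.5% of all genes. Of these, mRpL53, of the large subunit, fell, as did 1.03% of all genes (mean step -0.31, SE 0.07, adjusted p = 0.0382, edgeR quasi-likelihood test). The mean step of mRpL17 was -0.27 (adjusted p = 0.101). The call of mRpL53 held in 5 of 20 leave-one-out fits and was lost with a term for deep libraries (-0.30, adjusted p = 0.0787) and with the length trend taken out (-0.20, adjusted p = 0.107). None of the 63 tested genes of oxidative phosphorylation was called. Their median was 0.01 in males and -0.21 in females, where 58 of 63 were below 0, against 31 of 63 in males (52.7% and 51.8% of all genes). Sdha, the flavoprotein of succinate dehydrogenase, had 0.22 and Ndufa13, of complex I, -0.25 (adjusted p 0.0892 and 0.0632). Of the 95 tested odorant receptors, none called, 68 had a positive female step and 29 a positive male step (47.3% and 48.2% of all genes), with medians of 0.36 and -0.17. The remaining lists held no called gene: cytosolic ribosomal proteins, gustatory receptors, odorant binding proteins, serine proteases, hexamerins, heat shock, cell cycle, DNA replication and repair, sex determination, DNA methylation and clock genes. Among sex determination genes, Tra had a mean step of -0.27 and Fru of 0.46 (adjusted p 0.290 and 0.111). Whether the listed medians of males and females differ was not tested.

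**Figure D4:**
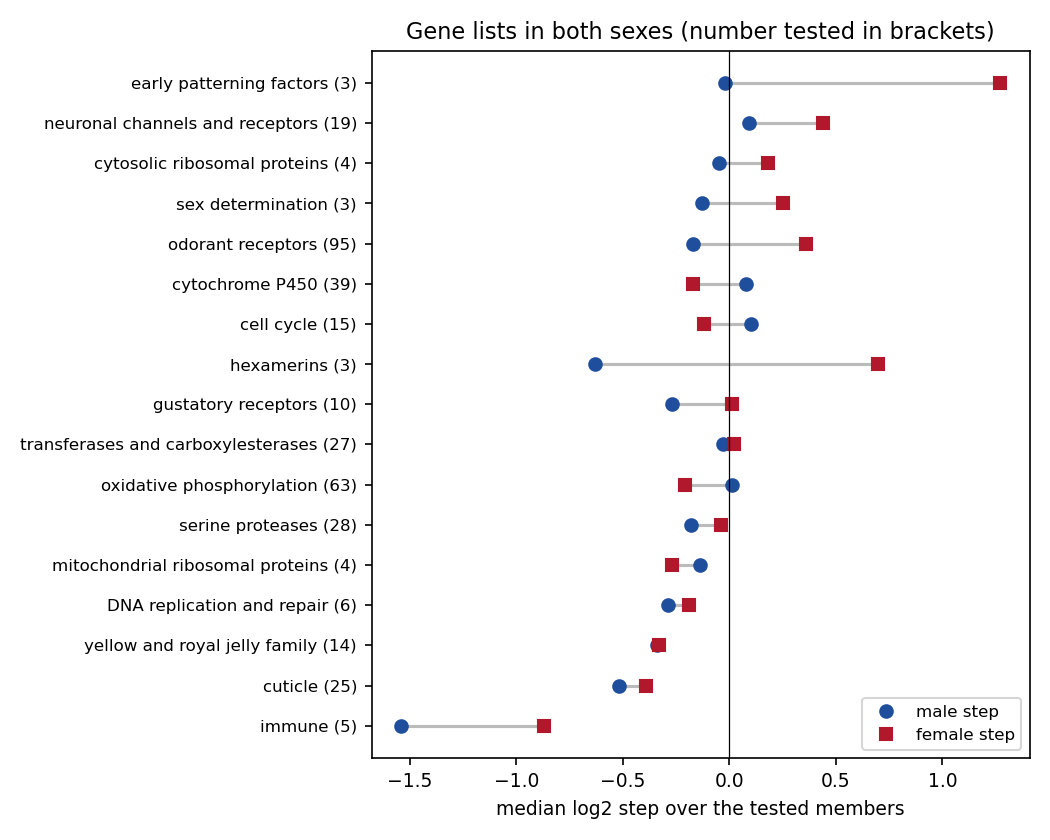
Median log2 step (x axis) of each gene list with at least 3 tested members (y axis, number tested in brackets) in males (circles) and females (squares). The immune, cuticle and yellow lists lie below 0 in both sexes, and the hexamerins, odorant receptors and early patterning factors are among those that have a female median above 0 and a male median below it.

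Genes moving differently in the sexes could not be established. No gene passed for the interaction in the edgeR quasi-likelihood test (smallest adjusted p 0.308), although 1044 genes (9.63%) had an unadjusted p under 0.05; voom called 0 and DESeq2 called 12, 8 with the more positive female step. The smallest p belonged to LOC100115888, which stood at 6.78, 3.71, 11.9, 5.58 and 8.60 CPM in 1N and at 0.372, 2.86, 1.14, 1.01 and 1.47 CPM in 2N males. LOC100115888 was at 0.386, 2.22, 3.89, 2.33 and 1.99 CPM in 2N and at 7.84, 14.4, 10.6, 2.28 and 2.20 CPM in 3N females. Males were thus lower at the higher ploidy without overlap, while in females the 3 deep 3N libraries were high and the 2 shallow ones lay within the 2N range. The male step was -2.48, the female step 1.80 and the interaction 4.28 (SE 0.84, adjusted p = 0.308).

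LOC107981331 had a large male step. It stood at 84.1, 22.5, 2.34, 17.6 and 25.2 CPM in 1N and at 0.905, 2.92, 1.47, 0.918 and 0.899 CPM in 2N males. In females it was at 143, 85.5, 99.5, 66.7 and 91.7 CPM in 2N and at 81.3, 59.0, 72.1, 30.8 and 44.2 CPM in 3N heads. The 1N male B3 again lay within the 2N range, here below the 2N male B12A. Its male step was -4.54 and its female step -0.76; the interaction of 3.79 (SE 0.81) had an adjusted p of 0.376 (edgeR quasi-likelihood test), while the mean step of -2.65 was called (adjusted p = 0.00547) but not with a term for deep libraries (adjusted p = 0.0991).

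hairy, a basic helix-loop-helix repressor of segmentation and neural development, rose in females and not in males. Its levels were 13.5, 13.5, 6.20, 7.73 and 6.08 CPM in 1N and 13.7, 13.7, 6.17, 8.57 and 4.27 CPM in 2N males. hairy stood at 3.04, 6.38, 4.91, 4.99 and 5.27 CPM in 2N and at 16.2, 13.6, 12.6, 12.4 and 17.4 CPM in 3N females. The male groups overlapped over most of their range, and the female groups were apart. The female step was 1.55 (adjusted p = 0.0420) and the male step -0.02, but the interaction of 1.57 (SE 0.43) had an adjusted p of 0.436 (edgeR quasi-likelihood test), so a difference between the sexes was not shown.

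The other genes of smallest interaction p differed in kind. LOC100115334, LOC100123616, LOC100122167 and LOC100119099 had negative male and positive female steps, with interactions of 1.63, 1.98, 1.48 and 1.27. LOC100116818, LOC100121192, LOC100121793 and LOC100122086 had positive male and negative female steps, with interactions of -0.60, -0.80, -0.47 and -0.58. LOC100121344 and LOC116418325 had a male step near 0 (-0.02 and 0.08) and fell or stood lower in females (-0.70, adjusted p = 0.00911, and -0.45, adjusted p = 0.0525, edgeR quasi-likelihood test). LOC100121344 is one of the 234 genes called for the mean step (-0.36, adjusted p = 0.0261). The metabolic genes Akhr, the receptor of adipokinetic hormone, and the storage proteins Hex109 and Hex83 had interactions of 1.20, 1.46 and 1.49 with a negative male step in each case (adjusted p 0.470, 0.483 and 0.483).

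**Figure D5:**
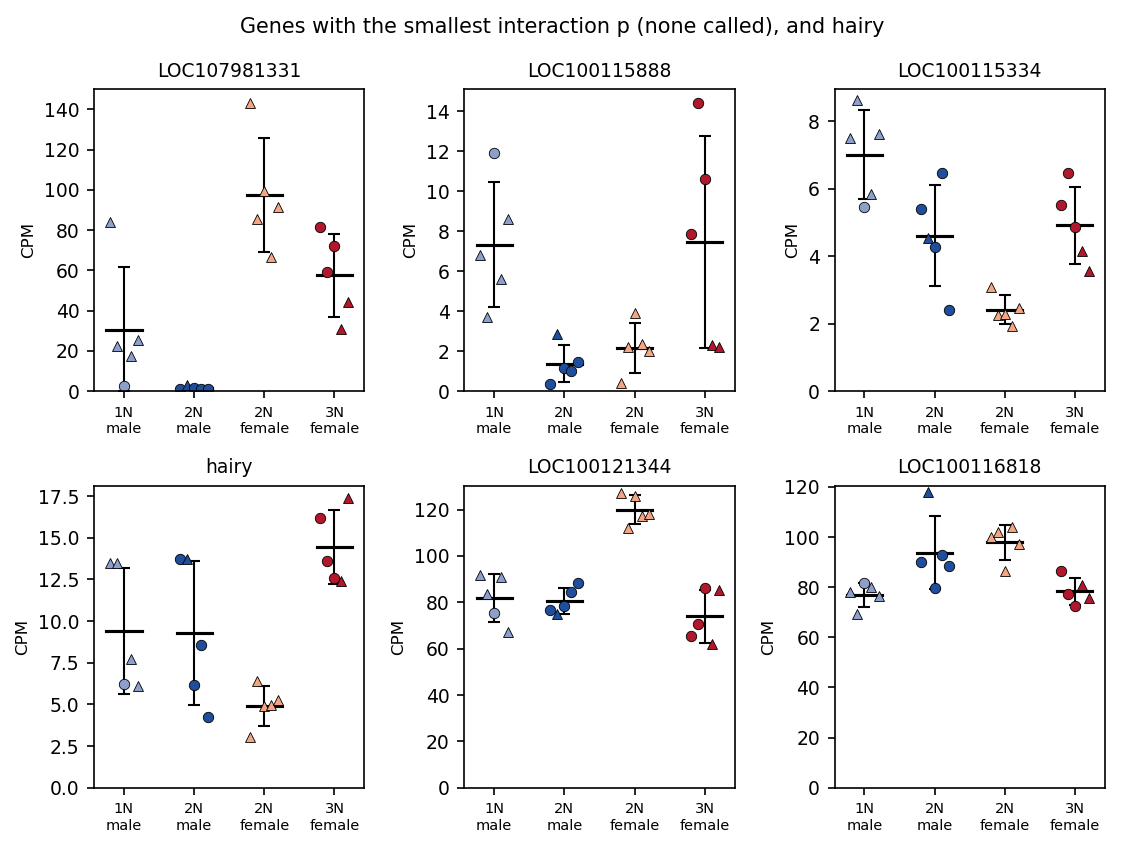
Level in CPM (y axis, from 0) in every head library, by group (x axis), for 5 genes with small interaction p and for hairy; no interaction was called. Circles are libraries over 30 M counts and triangles the others; bars show the mean and SD of 5 libraries, the lower arm stopping at 0. By log2 step, which is not the scale plotted, LOC107981331 differs mostly in males and hairy in females. LOC100115888 runs in opposite directions.

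Depth and gene length moved with the mean step. With a term for deep libraries, 471 genes were called, 317 higher and 154 lower, and 116 of the 234 remained; in that fit the male step called 0 genes and the female step 623. Shallow libraries alone, 4 against 1 in males and 5 against 2 in females, called 33, of which 9 were among the 234, and all 234 kept their sign. The genes that rose were long and those that fell short: the median relative effective length, computed from the deposited counts and TPM, was 1.73 and 0.696 of a library's median gene, against 0.979 over all genes. Across genes the Spearman correlation of length with the step was 0.34 for the mean step, 0.17 for the male and 0.36 for the female step. By library, levels relative to the mean of their sex correlated with length at -0.33 to -0.19 in 2N females and 0.04 to 0.47 in 3N females, and at -0.36 to 0.23 in 1N and -0.22 to 0.25 in 2N males. With each library's trend on length taken out, 157 genes were called and 132 of the 234 remained. LOC100121630, Imd, nAChRa10, Scr, Kr, Wds and LOC103317497 kept their call in that fit, with mean steps of -1.51, -0.32, 1.35, 1.6, 0.75, -1.76 and 2.19.

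The abdomens of the same line gave a second, separate set of libraries for the same contrasts. In the male abdomens 73.3% of the 120 head genes that rose and were tested there had a positive step, against 44.5% of all genes, and 70.6% of the 109 that fell had a negative step, against 55.5%. These steps were small, with medians of 0.16 and -0.16, and 5 of 11884 genes (0.0421%) were called in male abdomens in all. Across genes the male abdomen step also correlated with gene length (Spearman correlation 0.17), while the female abdomen step hardly did (0.01). The head genes that rose were long and those that fell short. The part of length in the shared signs was not tested. In the female abdomens, where 38.7% of genes were called, 67.5% of the genes that rose in heads had a positive step, against 53.5% of all genes. Genes that fell in heads did not follow there: 35.8% were negative, against 46.3% of all genes, and 42 of 109 were called in the opposite direction. Cell type markers moved there too. Summed nanos and oskar ran from 1090 to 1270 CPM in 2N and from 424 to 1080 CPM in 3N female abdomens, and fat body markers from 2.57 to 3.37 and from 4.14 to 55.7 CPM. Muscle markers ran from 496 to 596 and from 633 to 1580 CPM, and neuron markers from 17.7 to 24.9 and from 24.4 to 73.5 CPM. Their part in these steps was not tested. LOC100121630 had an abdominal step of -0.67 in males (adjusted p = 1, edgeR quasi-likelihood test) and 5.18 in females (adjusted p = 0.00356). Whether heads and abdomens came from the same animals is not stated in the labels.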

How the data were processed

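Poly(A)-selected RNA libraries were analysed, 20 from heads and 19 from abdomens, the latter for 1 comparison. RNA was not treated with DNase, per the labels' protocols. The authors deposited estimated counts for 14621 genes, not normalized; 16.8% of values are not whole, and they were rounded, by at most 0.5. The authors also deposited TPM values, scaled for gene length and library total, for 14613 genes, used for alternatives and for gene length. STAR 2.7.11a and RSEM 1.3.1 are listed, without their roles, per the submitters' processing notes; for build, annotation and strand setting the entry is "not given in the sources used here". Every identifier had a match in the RefSeq table of assembly Nvit_psr_1.1, used for names and neighbours only. Columns were matched to samples by name, and groups were taken from the labels.

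The 4 head groups were fitted together, 1 mean per group, with edgeR 4.0.16 (R 4.3.3), TMM and filterByExpr; contrasts were tested two-sided by the quasi-likelihood F test, with Benjamini-Hochberg adjustment over all 10846 genes and a threshold of 0.05. "Rose" and "fell" are kept for called genes. CPM are counts per 1 M counts of the TMM-scaled library and are not comparable between genes. The standard error is the step divided by the square root of F. The scripts were tested on simulated data. The alternatives were library totals, DESeq2 1.42.0, limma 3.58.1 (voom, or log2 of TPM plus 1 or 0.1), no filter, terms for libraries over 30 M counts or with names ending in a letter, other sets of libraries, a fold of 1.5 and each library left out; thinned counts, omission of B5D and B21 together, length offsets and library positions (with 0.5 CPM added before the log) were added after seeing the data. The labels name no batch.

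Named genes were, among called genes with at least 5 CPM in a group, the 10 largest rises and falls with a descriptive name and 4 others per direction by p; the 6 smallest interaction p per sign; up to 2 per list and direction; and some chosen genes. Not all are printed, and a few others were named after their values were seen, with neighbours and list members. Members, lists and tests were chosen with earlier results of these data known, so lists carry no test. Chemosensory proteins had no match.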

Additional observations from a re-analysis of the deposited data

Results flagged for a closer look

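Over 236 groups of 5 head libraries, 59 genes in 4 groups each, 32 had 1 library far from the rest. For independent values of a normal distribution the cutoff would flag about 1 in 20 groups. The CPM of these chosen genes are not such values and share the same libraries, so that rate is only a rough guide. B5D accounted for 6 of these, B3 for 5, B12A and B13 for 4 each and B32 for 3. The values are CPM, each with that of the nearest library of its group.

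Among defensins, Def1-1 was high in B3 (33.1 against 7.47), B13 (10.0 against 2.72), B23 (37.1 against 2.64) and B32 (10.9 against 1.97). Def1-2 was high in the same libraries: B3 (263 against 52.8), B13 (82.1 against 18.9), B23 (105 against 26.7) and B32 (38.1 against 17.8).

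The 1N male B3 was also high for nAChRa10 (31.5 against 8.60), LOC103317497 (48.1 against 10.3) and LOC100679215 (23.3 against 8.55). The 1N male B5D was high for CPR35 (533 against 132), SDR (49.6 against 8.35), Tra (165 against 90.7) and LOC100118738 (9.40 against 2.24). It was low for Sdha (170 against 209) and LOC100678896 (3.17 against 6.39). The 1N male B1A was low for Fru (36.1 against 96.5) and high for LOC107981331 (84.1 against 25.2).

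Among 2N males, B12A was high for nAChRa10 (40.9 against 30.1), SDR (7.89 against 2.91), LOC107981331 (2.92 against 1.47) and Hex83 (6.89 against 2.56). B13 was high for LOC100680416 (4.62 against 1.72) and low for LOC100120541 (95.1 against 120). B15 was low for CYP314A1 (12.8 against 15.5) and high for LOC100122086 (59.6 against 53.3).

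Among females, CPR22 was high in the 2N library B24 (5.54 against 2.87) and in the 3N library B32 (19.3 against 7.53). The 3N females B35A, B34A and B33 stood apart for Kr (18.5 against 12.6), Ndufa13 (398 against 342) and LOC100680416 (23.6, low, against 31.9).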

How the results depend on the processing

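All 234 genes called for the mean step kept their sign in every setting tried, but their number did not hold. It was 709 with DESeq2, 124 without a filter, 65 and 46 on log2 of TPM plus 1 and 0.1, 47 on log2 of TPM plus 1 without a filter, 471 with a term for deep libraries, 404 with a term for letter-named libraries, 33 with shallow libraries alone, 47 with all 39 libraries, 4 against a fold of 1.5 and 438 without B5D and B21. Leaving out 1 library gave 45 to 833. Thinned counts called 221, 140 higher and 81 lower.

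The interaction called 12 genes with DESeq2, 3 on log2 of TPM plus 1 without a filter, 1 with the term for letter-named libraries, 0 to 1 on leaving out a library, and 0 in the other settings.

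The male step called 75 with DESeq2, 5 without a filter, 20 on log2 of TPM plus 1, 0 with either term, 1 with all 39 libraries, 3 against a fold of 1.5, 0 with male heads alone, 3 with thinned counts, 17 without B5D and B21, 4 with the length trend taken out, and 3 to 63 on leaving out a library. The female step called 72 with library totals, 587 with DESeq2, 52 with voom, 22 without a filter, 12 on log2 of TPM plus 0.1, 623 and 154 with the terms for deep and letter-named libraries, 1 with shallow libraries alone, 74 with all 39 libraries, 0 against a fold of 1.5, 1805 with female heads alone, and 2 to 612 on leaving out a library.

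The Spearman correlation of the steps was 0.14 without a filter, 0.41 and 0.10 with the terms for deep and letter-named libraries, 0.31 with shallow libraries alone, 0.30 without B5D and B21, and 0.10 to 0.32 on leaving out a library. The term for deep libraries takes the same estimate out of both steps, so its 0.41 does not measure agreement. The Hex83 interaction turned to -0.05 with shallow libraries alone. The cause of these shifts was not tested. No paired analysis was possible because each library number occurs in 1 group only, so groups share no replicate number. Depth and ploidy overlap in both sexes, and their shares in a step cannot be told apart fully.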
